A study of Mus musculus with 12 samples.

Results

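The 10 genes described here make, recycle and use glutathione, and were chosen by name from the 34745 genes of the deposited table. They are the cystine carrier Slc7a11, the synthesis genes Gclc, Gclm and Gss, the reductase Gsr, the peroxidases Gpx1, Gpx3 and Gpx4, and the transferases Gstm1 and Gstp1. All 10 were found in the table, and all 10 passed edgeR's filter on low counts in each of the 6 pairwise comparisons.

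RNA of total femoral bone marrow was measured in 12 libraries from male ICR mice, an outbred stock, with 3 libraries in each of 4 groups. Mice of the normal group received saline in place of every agent. Mice of the model group were injected intraperitoneally with cyclophosphamide, an alkylating drug that kills dividing cells, on days 5 to 7 (80 mg/kg each day), and had saline by mouth. Mice of the QJSB group had these injections and the Qi-Jing-Sheng-Bai granule by mouth for 1 week (3 g/kg daily). Those of the leucogen group had the injections with oral leucogen, a drug used against low leucocyte counts, for the same time (20 mg/kg daily). Thus the model, QJSB and leucogen groups all carry cyclophosphamide, and no group received QJSB or leucogen alone. The age of the mice was not given in the sources used here. In the table the columns are headed Blank, Model, Positive and Stilbene. Blank was read as normal, Positive as leucogen and Stilbene as QJSB by the meaning of the words and by elimination, and every group value below rests on that reading.

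Glutathione is a tripeptide of glutamate, cysteine and glycine that keeps the inside of the cell reduced. Cystine enters through the carrier that Slc7a11 encodes, the ligase formed by Gclc and Gclm joins glutamate to cysteine in the rate-limiting step, and Gss adds glycine. Glutathione peroxidases spend glutathione to reduce peroxides, glutathione transferases join it to reactive compounds, including alkylating drugs, and Gsr returns the oxidised form to the reduced one. Several of these genes are textbook targets of the transcription factor NRF2, which with small MAF proteins binds antioxidant response elements.

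The start regions of these genes were searched for the core letters of that element. Several members are known targets of NRF2, so their letters are not independent of the choice of genes. RefSeq promoter windows of 300 bases on GRCm38.p6 matched 8 of the 10 members, all but Gclc and Gsr. They hold the start site and a short stretch upstream, so elements farther upstream could not be found. The letters TGACNNNGC, read on both strands, were in 12.4% of the 32851 windows of the table, or in a window of 14.0% of its 27025 genes, and in a window of 1 of the 8 members, Gclm. The related letters TGAGNNNGC, which cannot match the same stretch on the same strand but take in the AP-1 letters TGAGTCA when followed by GC, were in 17.6% of all windows, or in a window of 19.8% of all genes, and in windows of 2 of the 8 members, Slc7a11 and Gstp1. The windows of these 3 genes are printed because they hold a match, and that of Gstm1 because this gene had the largest change of the 10 in model against normal. Gstm1 has a second, overlapping window in the table, and the printed one is that farther upstream. Neither holds a match. Each runs 5′ to 3′ on the strand of its gene, with matches in capitals, and a match to the opposite strand appears as its reverse complement.
Gclm, chr3:122245307-122245606, plus strand: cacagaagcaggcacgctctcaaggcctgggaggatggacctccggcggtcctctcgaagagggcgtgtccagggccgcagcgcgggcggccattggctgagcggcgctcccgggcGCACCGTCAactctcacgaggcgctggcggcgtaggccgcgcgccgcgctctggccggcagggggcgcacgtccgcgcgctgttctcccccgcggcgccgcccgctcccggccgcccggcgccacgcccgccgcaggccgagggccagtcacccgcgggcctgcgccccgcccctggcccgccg
Slc7a11, chr3:50443564-50443863, minus strand: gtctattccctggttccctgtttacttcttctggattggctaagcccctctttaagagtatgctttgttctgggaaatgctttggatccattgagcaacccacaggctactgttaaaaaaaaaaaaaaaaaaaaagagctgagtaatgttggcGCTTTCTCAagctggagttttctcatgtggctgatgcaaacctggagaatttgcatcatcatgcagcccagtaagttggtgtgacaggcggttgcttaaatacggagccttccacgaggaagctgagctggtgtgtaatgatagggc
Gstp1, chr19:4037863-4038162, minus strand: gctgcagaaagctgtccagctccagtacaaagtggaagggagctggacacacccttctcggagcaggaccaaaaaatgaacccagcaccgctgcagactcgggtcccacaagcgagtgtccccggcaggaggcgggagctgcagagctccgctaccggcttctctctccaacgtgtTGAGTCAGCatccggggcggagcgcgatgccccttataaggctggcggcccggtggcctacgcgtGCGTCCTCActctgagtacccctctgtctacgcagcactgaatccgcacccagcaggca
Gstm1, chr3:108017924-108018223, minus strand: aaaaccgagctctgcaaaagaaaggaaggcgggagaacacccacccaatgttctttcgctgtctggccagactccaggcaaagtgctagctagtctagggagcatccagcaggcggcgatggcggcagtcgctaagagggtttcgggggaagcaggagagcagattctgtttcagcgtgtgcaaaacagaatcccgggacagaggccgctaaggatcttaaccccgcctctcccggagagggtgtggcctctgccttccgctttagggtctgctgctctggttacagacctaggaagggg
Counted from the start site, the match of Gclm lies at -134 to -126 and that of Slc7a11 at -97 to -89. Gstp1 holds a pair of matches, at -74 to -66 and at -9 to -1. A match is a run of letters in the window and says nothing of binding in marrow.

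The library totals ran from 11172547 to 18545198 counts. Replicates were not copies of each other, since the chi-square over degrees of freedom of a replicate pair was 10.3 to 105. Nothing in the labels says whether the mice of a group were handled together, so p-values measure the spread between these libraries. The cell types of the marrow moved with the groups. The summed CPM of 13 erythroid markers (counts scaled to a common library total after TMM) was 17700 to 22100 in normal, 180 to 1860 in model, 237 to 662 in QJSB and 190 to 730 in leucogen. That of 5 promyelocyte markers was 740 to 951, 6600 to 9480, 8130 to 8970 and 3450 to 4560, and that of 13 late neutrophil markers was 19700 to 23300, 4830 to 20000, 7370 to 38000 and 49500 to 59200. The sum over 8 markers of dividing cells was 7230 to 7500 in normal and 3020 to 4210 in the 3 cyclophosphamide groups. These 8 did not all move together. By the test described below, 3 were lower and 0 higher in model against normal, beside 19.0% and 16.1% of all genes. In QJSB against normal 4 were lower and 1 higher (19.9% and 18.0% of all genes), and in leucogen against normal 6 and 0 (19.8% and 17.8%). None of these 4 lists had a marker at 0 in any group. The libraries model 1 and QJSB 1 stood apart from their groups, with the lowest late neutrophil sums of all (4830 and 7370) and the highest sums of 8 stromal markers (758 and 922, against 181 to 422 in the other 10). In bulk RNA, fewer cells of a type and less RNA per cell cannot be told apart.

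Levels can be compared between genes per length, as FPKM (fragments per kilobase of transcript, scaled to the mapped fragments of the library). In normal marrow Gpx1 had the highest mean, 115 ± 63.2 FPKM (SD, n = 3), followed by Gclc at 41.6 ± 1.52, Gsr at 28.2 ± 2.80 and Gclm at 27.1 ± 2.58. Gpx4 stood at 15.7 ± 0.931, Gstp1 at 9.92 ± 0.947, Gstm1 at 8.52 ± 1.05 and Gpx3 at 4.57 ± 0.828, while Slc7a11 at 1.25 ± 0.422 and Gss at 0.986 ± 0.172 were lowest. The libraries of neighbours in this order overlapped for Gpx1 and Gclc, Gsr and Gclm, Gstp1 and Gstm1, and Slc7a11 and Gss, so those pairs have no order beyond their spread. The order was another one after cyclophosphamide. In model Gsr (101 ± 20 FPKM, SD, n = 3), Gstm1 (88.9 ± 31.3) and Gpx1 (74.4 ± 36.8) led with overlapping libraries, and Gclc stood at 13.3 ± 2.21. In QJSB Gstm1 (131 ± 12.5), Gsr (127 ± 22.4) and Gpx1 (92.5 ± 47.9) led, also with overlapping libraries. In leucogen Gsr (71.4 ± 11.0), Gpx1 (56.7 ± 14.0) and Gstm1 (44.5 ± 15.1) led, and the libraries of Gpx1 overlapped those of both others. Gss and Slc7a11 stayed the lowest of the 10 in all 4 groups.

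**Figure D1:**
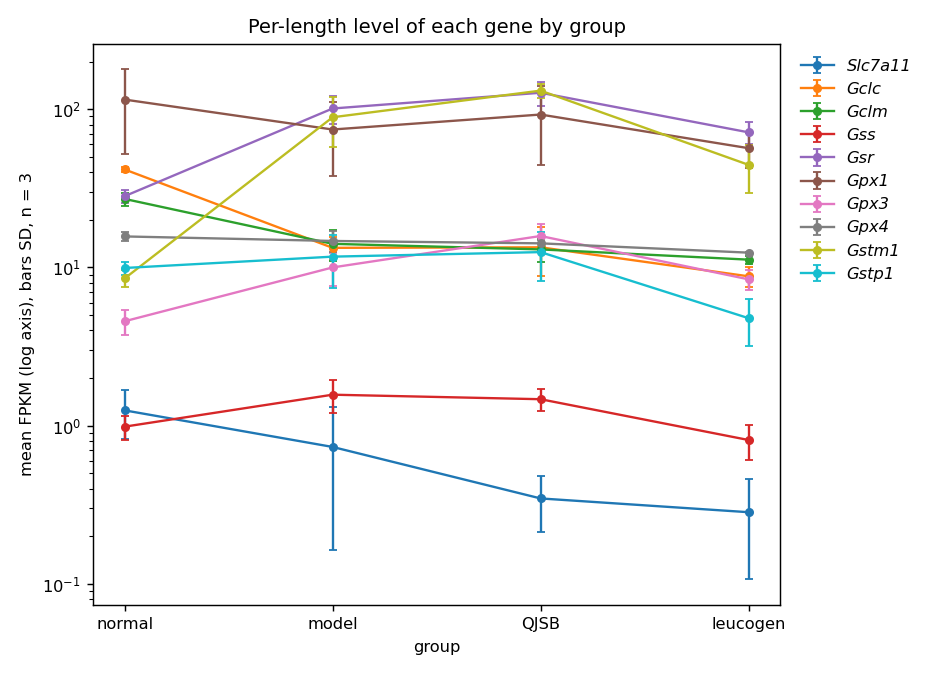
Mean FPKM of the 10 genes (log axis) in the normal, model, QJSB and leucogen groups, with the SD over 3 libraries as bars; the lines only join the points of 1 gene. Gstm1 goes from 8.52 in normal to 88.9 in model, 131 in QJSB and 44.5 in leucogen, and Gclc from 41.6 to 13.3, 13.4 and 8.79.

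The comparison of model with normal asks what cyclophosphamide did to these genes. Gstm1, Gsr and Gpx3 rose and Gclc and Gclm fell, while the other 5 did not pass the test. A gene was called at an adjusted p under 0.05 and a fold over 1.5 (0.585 on the log2 scale), with edgeR's quasi-likelihood test on counts and Benjamini-Hochberg adjustment over the 14752 genes tested. By that rule 5 of the 10 members were called, beside 35.1% of all genes. Of them 3 were higher, against 16.1% of all genes, and 2 were lower, against 19.0%. The libraries of both groups did not overlap for 6 of the 10, against 55.5% of all genes. The median log2 fold change was -0.05 over the members and 0.02 over all genes tested.

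Slc7a11 (chr3:49892526-50443614) brings in cystine, the usual limit on cysteine supply. It had 19.3, 27.1 and 13.5 CPM in normal, 3.29, 9.01 and 20.8 in model, 7.09, 3.76 and 5.24 in QJSB, and 3.58, 8.12 and 2.40 in leucogen, on 25 to 395 counts a library. Its model libraries span nearly the whole range seen, with model 3 among the normal values, whereas every QJSB and leucogen library lies under every normal one. Between model and normal its log2 fold change was -0.85 (SE 0.62, adjusted p = 0.313). Without model 3 it was -1.70 with an adjusted p of 0.0421, and the adjusted p ran from 0.0421 to 0.594 over the alternatives. Slc7a11 fell in QJSB against normal by 1.88 on the log2 scale (SE 0.33, adjusted p = 0.00283) and in leucogen against normal by 2.04 (SE 0.48, adjusted p = 0.0143). The second call rests on leucogen 1, without which the adjusted p was 0.0644, the highest of the alternatives, of which the lowest gave 5.04e-07. Several antisense genes and pseudogenes lie within the Slc7a11 locus, and how shared reads were counted is not given in the sources used here.

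Gclc (chr9:77754535-77794485) encodes the catalytic subunit of glutamate-cysteine ligase. Its CPM was 141, 151 and 144 in normal, 46.6, 35.3 and 45.6 in model, 58.8, 41.6 and 36.3 in QJSB and 28.4, 37.5 and 28.9 in leucogen. Every library given cyclophosphamide lies under every normal library, with a wide gap between them. Gclc fell in model by 1.77 on the log2 scale, a level 3.41-fold lower (SE 0.14, adjusted p = 5.54e-05), the smallest adjusted p of the 10 in this comparison. It also fell in QJSB against normal by 1.66 (SE 0.19, adjusted p = 0.000383) and in leucogen against normal by 2.18 (SE 0.12, adjusted p = 3.53e-07). The erythroid sums above are split in the same way, high in normal and low in the other 3 groups, and so are those of other lists. The sum of 7 mature B cell markers was 628 to 699 in normal and 1.27 to 15.5 in the other groups, that of 7 pre-B cell markers 675 to 872 and 11.9 to 209, and that of 8 eosinophil markers 1570 to 1930 and 72.8 to 282. In QJSB and leucogen 1 marker of each B cell list was at 0 (Fcer2a or Cr2, and Vpreb3). The sums of the T cell, NK cell and macrophage lists were also highest in normal. The part of any of these cells in the change of Gclc was not tested. By Pearson's r of log2 CPM over the 12 libraries, Hs6st1 (0.992) was among the genes most like Gclc, of 10530 genes compared. Such a value also reflects that the points share their groups, and it is given as a description.

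**Figure D2:**
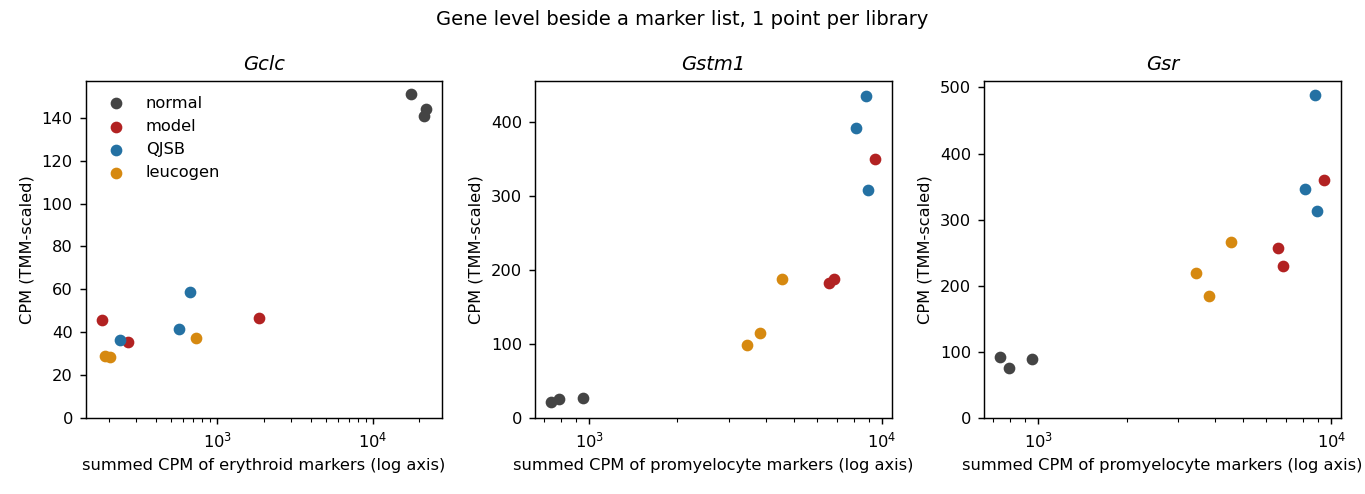
CPM of Gclc against the summed CPM of erythroid markers, and of Gstm1 and Gsr against that of promyelocyte markers (log x axes), with 1 point for each of the 12 libraries. The 3 normal libraries stand alone at 141 to 151 CPM of Gclc and at 21.4 to 27.8 CPM of Gstm1, and the leucogen libraries hold the lowest promyelocyte sums of the cyclophosphamide groups.

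Gclm (chr3:122245557-122270732) encodes the modifier subunit of the same ligase. It had 216, 219 and 252 CPM in normal, 87.4, 99.9 and 142 in model, 94.4, 100 and 130 in QJSB and 95.1, 103 and 93.0 in leucogen. The 3 cyclophosphamide groups overlap one another and lie under normal throughout. Gclm fell in model by 1.05 on the log2 scale (SE 0.19, adjusted p = 0.00249), in QJSB against normal by 1.07 (SE 0.15, adjusted p = 0.00104) and in leucogen against normal by 1.22 (SE 0.09, adjusted p = 3.42e-06). The ratio of Gclc to Gclm, taken on FPKM, was 1.54 ± 0.146 (SD, n = 3) in normal, 0.973 ± 0.277 in model, 1.06 ± 0.419 in QJSB and 0.784 ± 0.0825 in leucogen. It was 1.38 to 1.67 in the normal libraries and 0.723 to 0.878 in the leucogen ones, while QJSB, at 0.675 to 1.51, overlapped normal. The difference of these ratios was not tested. The genes most like Gclm were Birc5, a gene of cell division that is also on the marker list of dividing cells (r = 0.959 over 12 libraries), and Myo1c (0.956). The sums of dividing cell markers above were lower in the same groups as Gclm. In model against normal, 2 of those 8 markers had a positive log2 fold change. The sums of the erythroid, B cell, eosinophil, T cell, NK cell and macrophage lists were also highest in normal. The part of any of these cells in the change of Gclm was not tested. A pseudogene, Gm6061, lies on the same strand within Gclm.

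Gss (chr2:155563181-155592810) encodes glutathione synthetase, the last step. It was 6.96, 9.68 and 7.66 CPM in normal, 14.2, 10.9 and 10.1 in model, 12.9, 11.9 and 10.7 in QJSB and 4.69, 8.27 and 7.78 in leucogen, on 59 to 246 counts a library. The model and QJSB libraries lie above all normal and leucogen ones. Its log2 fold change was 0.54 in model (SE 0.22, adjusted p = 0.0767) and 0.56 in QJSB against normal (SE 0.19, adjusted p = 0.0457), which is under the fold cutoff. Scaled by total counts instead of TMM, the value for model became 0.67 with an adjusted p of 0.0486, in a range of 0.0486 to 0.236 over the alternatives. With TMM, the log2 fold change of Gss in leucogen against normal was -0.21 (SE 0.24, adjusted p = 0.486). The FPKM ratio of Gclc to Gss was 42.9 ± 5.63 (SD, n = 3) in normal and 8.67 ± 1.70 in model. The locus is overlapped on the opposite strand by Acss2, Gssos1 and Gssos2, and the sources used here do not say whether the counting used strand.

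Gsr (chr8:33652523-33698163) encodes glutathione reductase, which uses NADPH to return glutathione to its reduced form. Its CPM was 88.9, 76.3 and 91.7 in normal, 230, 257 and 360 in model, 313, 489 and 347 in QJSB and 185, 266 and 219 in leucogen. The normal libraries lie far under all others, and the leucogen values reach into the range of model. Gsr rose 3.31-fold in model (log2 1.73, SE 0.18, adjusted p = 0.000197), by 2.17 on the log2 scale in QJSB against normal (SE 0.19, adjusted p = 0.000112) and by 1.40 in leucogen against normal (SE 0.13, adjusted p = 1.52e-05). With Gclc lower and Gsr higher, the FPKM ratio of Gsr to Gclc went from 0.680 ± 0.0854 (SD, n = 3) in normal to 7.71 ± 1.79 in model, 10.2 ± 3.76 in QJSB and 8.12 ± 0.611 in leucogen. The ratio was 0.581 to 0.733 in the normal libraries and 5.68 or more in each of the other 9. The genes most like Gsr were Palm (r = 0.996 over 12 libraries) and Dnajc13 (0.994).

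The peroxidases did not move together. Gpx1 (chr9:108338903-108340343), the main cytosolic selenium peroxidase, had 150, 501 and 549 CPM in normal, 330, 254 and 118 in model, 381, 437 and 130 in QJSB and 171, 266 and 173 in leucogen. Normal 1, model 3 and QJSB 3 lie far under the other libraries of their groups, and all groups overlap. Its log2 fold change in model was -0.77 (SE 0.56, adjusted p = 0.318, interval -1.87 to 0.33), an interval that still holds a fall of more than 1.5-fold. In leucogen against normal it was -0.96 (SE 0.56, adjusted p = 0.227), and without normal 1 it became -1.35 with an adjusted p of 0.00122, in a range of 0.00122 to 0.462 over the alternatives. The genes most like Gpx1, Mr1 (r = 0.856) and Leprot (0.834), were less close to it than those of Gclc or Gsr.

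Gpx3 (chr11:54902453-54910377), the secreted peroxidase of plasma, had 9.79, 10.1 and 13.2 CPM in normal, 16.6, 21.6 and 29.0 in model, 30.5, 49.2 and 34.2 in QJSB and 21.9, 22.8 and 18.0 in leucogen. The normal libraries are lowest and the QJSB ones highest, with no overlap of either with another group. Gpx3 rose 2.03-fold in model (log2 1.02, SE 0.24, adjusted p = 0.00903), by 1.79 on the log2 scale in QJSB against normal (SE 0.22, adjusted p = 0.000607) and by 0.94 in leucogen against normal (SE 0.16, adjusted p = 0.000872). Gpx4 (chr10:80047166-80056439), which reduces lipid peroxides in membranes and guards against ferroptosis, was the steadiest member. It had 47.6, 45.2 and 41.6 CPM in normal, 34.5, 45.4 and 35.9 in model, 36.3, 45.0 and 38.9 in QJSB and 35.3, 37.1 and 36.9 in leucogen. Model and QJSB overlap normal, and the leucogen libraries lie just under it. The log2 fold change of Gpx4 was -0.21 in model (SE 0.15, adjusted p = 0.298, interval -0.51 to 0.09), and -0.28 in leucogen against normal, where the adjusted p was 0.0352 (SE 0.10) with a fold under the cutoff. The interval for model leaves out a 1.5-fold change in either direction, though it is narrow for so few libraries.

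The transferases differed most. Gstm1 (chr3:108012255-108017973), a cytosolic enzyme of the mu class, had 27.8, 25.7 and 21.4 CPM in normal, 188, 183 and 350 in model, 309, 435 and 392 in QJSB and 115, 188 and 98.8 in leucogen. Every cyclophosphamide library is above every normal one by more than 3-fold, and the QJSB and leucogen libraries do not overlap. Gstm1 rose 9.67-fold in model (log2 3.27, SE 0.28, adjusted p = 9.68e-05), the largest change of the 10. It rose 15.3-fold in QJSB against normal (log2 3.94, SE 0.18, adjusted p = 1.09e-05) and 5.46-fold in leucogen against normal (log2 2.45, SE 0.26, adjusted p = 0.000313). The promyelocyte sums above have the same order of groups, QJSB and model over leucogen over normal, and so do other lists. The sum of 6 monocyte markers was 1480 to 1600 in normal, 3480 to 6620 in model, 3750 to 4460 in QJSB and 2220 to 2800 in leucogen. That of 6 stem and progenitor markers was 136 to 150, 230 to 392, 241 to 380 and 153 to 165. No marker of these lists was at 0 in any group, and the part of these cells in the change of Gstm1 was not tested. Over the 12 libraries Gstm1 was most like Ltbr (r = 0.991) and Ctns (0.989), and among members it went with Gsr (0.982) and Gpx3 (0.918). Gstm1 belongs to a family of near copies, and reads shared with Gstm4 or other members could have been split between them.

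Gstp1 (chr19:4035407-4037921), the pi class transferase, had 8.05, 8.17 and 6.76 CPM in normal, 10.6, 5.18 and 8.89 in model, 12.1, 8.92 and 7.19 in QJSB and 3.50, 5.22 and 2.69 in leucogen, on 28 to 225 counts a library. Normal, model and QJSB overlap, and the leucogen libraries lie low. In model its log2 fold change was 0.11 (SE 0.27, adjusted p = 0.769, interval -0.42 to 0.65). Gstp1 fell in leucogen against normal by 0.98 on the log2 scale (SE 0.25, adjusted p = 0.00804), and in QJSB against normal its value was 0.31 (SE 0.24, adjusted p = 0.314). Gstp2 and Gstp3 are close copies, and Gstp1 values carry the same doubt on shared reads. The genes most like it were Snrpb (r = 0.970 over 12 libraries) and Ddx24 (0.968).

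**Figure D3:**
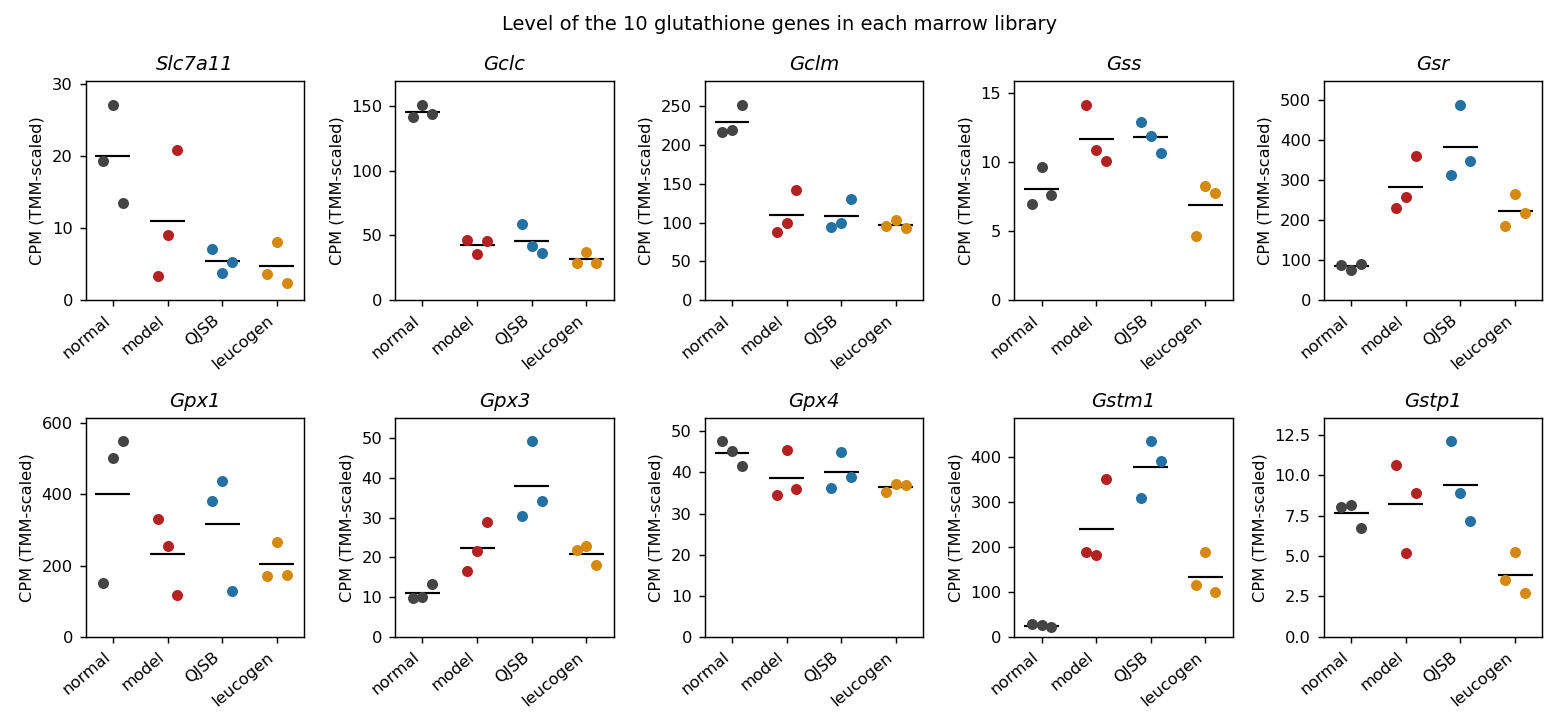
CPM after TMM scaling of each of the 10 genes in the 12 libraries, with 1 point a library and a line at the mean of each group of 3; each panel has its own axis from 0. The normal libraries of Gclc (141 to 151) and Gclm (216 to 252) are above all others, and those of Gsr (76.3 to 91.7) and Gstm1 (21.4 to 27.8) are below all others.

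The drug groups were also set against normal. In QJSB against normal 6 of the 10 members were called, beside 37.9% of the 14817 genes tested. Gstm1, Gsr and Gpx3 were the 3 higher ones (18.0% of all genes were higher), and Gclc, Gclm and Slc7a11 the 3 lower ones (19.9% were lower). The libraries did not overlap for 7 of the 10, against 58.0% of all genes. In leucogen against normal 7 of the 10 were called, beside 37.7% of the 14637 genes tested. Gstm1, Gsr and Gpx3 were the 3 higher ones (17.8% of all genes were higher), and Gclc, Gclm, Slc7a11 and Gstp1 were the 4 lower ones (19.8% were lower). The libraries did not overlap for 8 of the 10, against 61.8% of all genes. These comparisons and that of model share the normal libraries, so they are not independent of one another.

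The comparison of QJSB with model asks what the granule changed under cyclophosphamide. No member was called by edgeR, and none of the 14486 genes tested was (0.0%, and 0.0% in each direction), with a smallest adjusted p of 0.767. At an unadjusted P under 0.05 by edgeR with the same fold, 2 of the 10 members passed, Gpx3 and Gstm1, beside 3.08% of all genes. This is the cutoff of the study's methods, which applied it with DESeq2. Gpx3 had a log2 fold change of 0.75 (SE 0.26, unadjusted P = 0.019 and adjusted p = 0.767 by edgeR), and it was the 1 member whose libraries did not overlap, against 9.80% of all genes. Gstm1 had 0.64 (SE 0.27, unadjusted P = 0.0438 and adjusted p = 0.767 by edgeR), with model 3 inside the range of QJSB. At an unadjusted P under 0.05 of any fold edgeR gave 723 genes and 2 members, DESeq2 907 genes and 3 members, of which 8 genes and 0 members were called, and limma 835 genes and 2 members, with none called. Same-numbered QJSB and model libraries deviated together, and with the number as a replicate block edgeR called 18 genes and 0 members. The median log2 fold change was 0.13 over the members and -0.02 over all genes.

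For the other 8 members the data bound the difference between QJSB and model rather than show it absent. Gss had a log2 fold change of 0.00 with an interval of -0.44 to 0.43, Gpx4 of 0.04 with -0.32 to 0.39, Gclm of -0.04 with -0.47 to 0.39 and Gclc of 0.08 with -0.34 to 0.51. A change of 1.5-fold lies outside each of these 4 intervals. They are too narrow for so few libraries, so this is not a firm bound. The intervals of Gsr (-0.03 to 0.88), Gstp1 (-0.46 to 0.81), Gpx1 (-0.58 to 1.41) and Slc7a11 (-2.21 to 0.11) each hold a change of that size.

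In leucogen against model 1 of the 10 members was called, beside 23.1% of the 14184 genes tested, and it was lower (11.5% of all genes were lower and 11.6% higher). Gstp1 fell by 1.10 on the log2 scale (SE 0.34, adjusted p = 0.0409), though leucogen 2, at 5.22 CPM, and model 2, at 5.18, overlap. The call was lost without model 1, model 3, leucogen 1 or leucogen 3, each with 0 members called, and without leucogen 2 there were 2. The adjusted p of Gstp1 ran from 0.0169 to 0.15 over the alternatives. By the cutoff of the study's methods, applied here with edgeR, 3 members passed, Gstp1, Gstm1 and Gss, beside 29.6% of all genes. Gss had a log2 fold change of -0.76 (SE 0.27, adjusted p = 0.062) and was the 1 member whose libraries did not overlap, against 46.0% of all genes, and Gstm1 had -0.83 (SE 0.32, adjusted p = 0.0935). The medians were -0.37 over the members and -0.05 over all genes. Scaling by total counts moved the median of all genes to -0.22 and called 4 members, the 3 just named and Gclc, so these differences depend in part on the scaling.

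QJSB and leucogen were also compared directly. The transferases, Gsr, Gpx3 and Gss were higher in QJSB. In all 5 of the 10 members were called, beside 24.6% of the 14266 genes tested. All 5 were higher in QJSB, against 12.9% of all genes, and 0 were lower, against 11.7%. Gstm1 was 2.78-fold higher in QJSB (log2 1.48, SE 0.25, adjusted p = 0.00528) and Gstp1 was 2.42-fold higher (log2 1.27, SE 0.31, adjusted p = 0.017). Gpx3 was 1.79-fold higher (log2 0.84, SE 0.20, adjusted p = 0.0174), and Gsr and Gss were each 1.69-fold higher, with adjusted p values of 0.0254 and 0.0486. The libraries did not overlap for these 5 members, against 48.8% of all genes. The peroxidases Gpx1 (0.61, SE 0.43, adjusted p = 0.32) and Gpx4 (0.12, SE 0.14, adjusted p = 0.545) and the ligase genes Gclc (0.50, SE 0.20, adjusted p = 0.0925) and Gclm (0.14, SE 0.16, adjusted p = 0.535) did not pass, nor did Slc7a11 (0.16, SE 0.45, adjusted p = 0.806).

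The number of calls moved with single libraries. Without leucogen 1 or without leucogen 3, 1 member was called, Gstm1, and without QJSB 2 there were 3. Gss lost its call under most alternatives, with adjusted p values from 0.0253 to 0.133. Without QJSB 3, Gpx1 was called as well (log2 0.98, adjusted p = 0.0232), in a range of 0.0232 to 0.645. The promyelocyte sums were 8130 to 8970 in QJSB and 3450 to 4560 in leucogen, with 3 of 5 markers higher and 0 lower, and the late neutrophil sums were 7370 to 38000 and 49500 to 59200, with 0 of 13 higher and 1 lower. Their part in the higher transferase and reductase levels of QJSB was not tested. Without QJSB 1, the library that stood apart, 4 members were called.

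**Figure D4:**
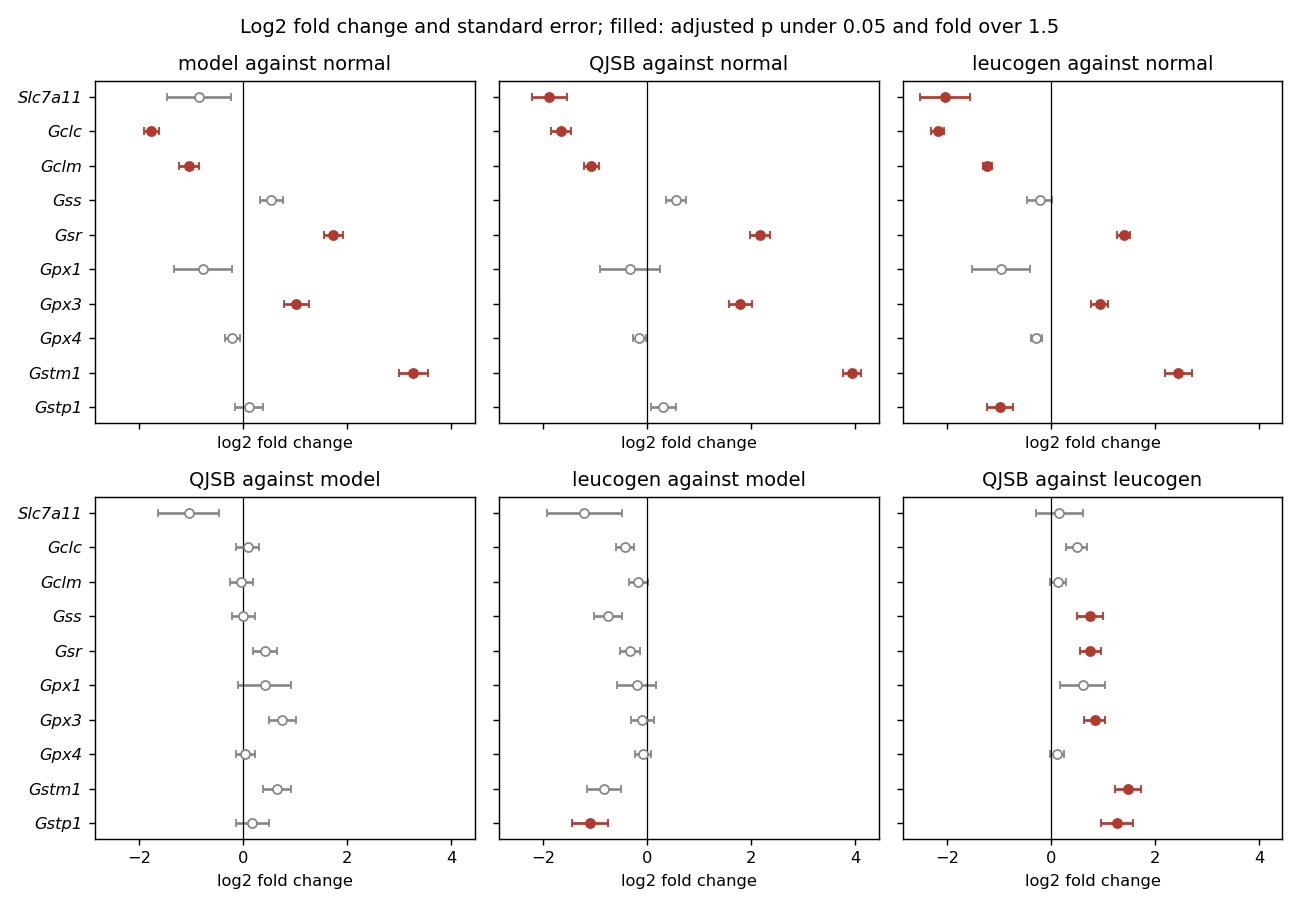
Log2 fold change with its standard error for each of the 10 genes in the 6 comparisons, from edgeR; filled points have an adjusted p under 0.05 and a fold over 1.5. Filled points number 5 in model against normal, 6 in QJSB against normal, 7 in leucogen against normal, 0 in QJSB against model, 1 in leucogen against model and 5 in QJSB against leucogen.

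The other genes of the pathway were counted in 7 lists of 97 genes in all. In model against normal, where 16.1% of all genes were higher and 19.0% lower with a median of 0.02, the list of breakdown and transport had 5 of 12 tested genes higher and 4 lower, with a median log2 fold change of 0.46. Chac2, which cleaves glutathione in the cytosol, fell by 4.03 (adjusted p = 5.94e-06), while Abcc4, an efflux pump, rose by 1.59. Of 15 other glutathione transferases 4 were higher and 5 lower. Gstm4 of the same class rose by 2.51 (adjusted p = 0.000238), but Gstm5 fell by 2.68 (adjusted p = 7.63e-05) and the microsomal Mgst3 by 3.45 (adjusted p = 5.94e-06). Of 8 other peroxidases 0 were higher and 3 lower, among them Prdx2, the peroxiredoxin abundant in red cells (-2.72, adjusted p = 4.48e-05), and catalase, Cat (-1.36, adjusted p = 0.000791). Of 5 genes of cystine and precursor supply 1 was higher and 1 lower, and Slc3a2, the partner chain of Slc7a11, had -0.16 (adjusted p = 0.718).

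The list of NRF2 regulators and textbook targets had 1 of 14 genes higher and 4 lower in model, beside the same 16.1% and 19.0% of all genes, with a median of -0.20. Nqo1, a quinone reductase, fell by 2.64 (adjusted p = 7.97e-05), whereas Nfe2l2, which encodes NRF2, had -0.01 (adjusted p = 0.942) and Keap1, its inhibitor, 0.36 (adjusted p = 0.144). The targets did not all go the way of Nqo1. Txnrd1, a thioredoxin reductase that is also on the thioredoxin list, had 54.1 ± 5.38 CPM (SD, n = 3) in normal and 94.2 ± 25.9 in model. Among glutaredoxins, thioredoxins and NADPH supply 4 of 15 were higher and 3 lower, with a median of 0.25. Of the sources of NADPH, Me1 fell by 3.94 while Idh2 rose by 1.57, G6pdx by 1.23 and Pgd by 0.60. Glrx5, needed for iron-sulfur clusters, fell by 2.14. Gpx1, Gpx3 and Gpx4 are selenoproteins. The list headed selenoprotein synthesis has 10 genes, not all of which act in that synthesis. Of these 10, 1 was higher and 0 lower, Sephs2 at 0.63 (adjusted p = 0.0115), with 0 called without normal 1 or without model 3 and 2 without model 2. In QJSB against model 0 genes of all 7 lists were called, as were 0.0% of all genes. In leucogen against model, where 11.6% of all genes were higher and 11.5% lower, the supply list had 1 of 5 higher and 4 lower, with Slc3a2 at -1.28 and Slc1a5, a glutamine carrier, at -1.05. These 5 calls became 0 without leucogen 3, 2 without leucogen 1 and 3 without leucogen 2. In the same comparison the NRF2 list had 2 of 14 higher, Nfe2l2 among them at 0.66, and 2 lower, with 1 or 2 calls in all without model 1, leucogen 1 or leucogen 3. In QJSB against leucogen, where 12.9% of all genes were higher and 11.7% lower, the supply list had 3 of 5 higher and 1 lower, with Slc3a2 at 1.15 (adjusted p = 0.00528), and the NRF2 list had 4 of 14 higher and 0 lower, with Sqstm1 at 1.16, of which 2 calls were left without leucogen 1 or leucogen 3. The medians of those 2 lists in that comparison were 1.11 and 0.31, against 0.03 over all genes.

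**Figure D5:**
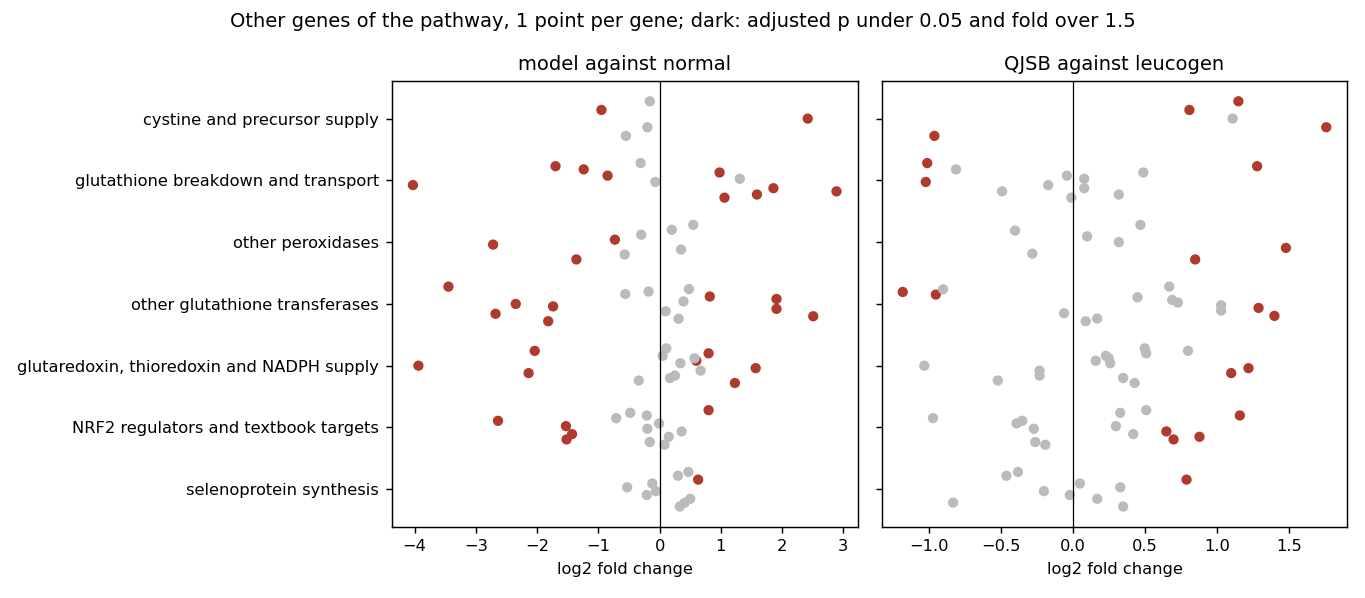
Log2 fold change of each tested gene of the 7 pathway lists in model against normal and in QJSB against leucogen, with 1 point a gene; dark points have an adjusted p under 0.05 and a fold over 1.5. In model against normal the transferase list spreads from -3.45 (Mgst3) to 2.51 (Gstm4), and in QJSB against leucogen the supply list has 3 dark points above 0 and 1 below.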

How the data were processed

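The 12 libraries, 3 in each of 4 groups, were made by the authors from total marrow RNA after removal of ribosomal RNA, with a strand-specific kit. Reads were filtered with Seqtk and mapped with Hisat2 2.0.4 to GRCm38.p4 (mm10). The counting program and the annotation are not given in the sources used here. The authors deposited, per gene and library, a raw read count and an FPKM, and 0 columns of samples were left unused.

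Counts were tested with edgeR 4.0.16 (TMM, filterByExpr, robust glmQLFit and glmQLFTest, R 4.3.3) on the 2 groups compared, with Benjamini-Hochberg adjustment over all genes tested. Intervals are at 95% by the normal distribution, which makes them too narrow for so few libraries. CPM is TMM-scaled, and log2 CPM has a prior count of 2. Alternatives were DESeq2 1.42.0 without a filter, its size factors, total counts, no filter, a fit of all 12 libraries, a block on the replicate number, limma 3.58.1 (limma-trend) on log2(FPKM + 0.1) and log2(FPKM + 1) where the mean FPKM reached 0.1, each library left out, and the cutoff of the methods, an unadjusted P under 0.05. After subtraction of group means, QJSB and model libraries with the same number correlated at 0.426, 0.123 and 0.107. The highest value is that of model 1 and QJSB 1, which both stood apart from their groups. No label states a shared batch, so pairing by number is not established, and the fit without a block is the one reported.

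All members are named. Of each pathway list and comparison, up to 3 called genes with the largest change and a mean normalized count of at least 50 could be named, and for each member the 2 genes with the highest correlation. For Gclc, 1 of these is not reported here. In model against normal, Slc3a2, Nfe2l2, Keap1, Txnrd1, Idh2, G6pdx and Pgd were named for their role, after their values were seen. The members, lists and tests were chosen with earlier results of these data known. Of the 16 marker lists, 1 gene was not found in the table. The tests were tried on simulated counts with known changes, modelled on the QJSB and model libraries only. The outcome is not reported here and is not used as support.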

Additional observations from a re-analysis of the deposited data

How the results depend on the processing

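The number of members called was within 1.5 times the reported one under every alternative for model, QJSB and leucogen against normal. With a library left out it ran from 5 to 6, from 6 to 7 and from 6 to 8. For QJSB against model it stayed at 0 with any library left out, and 2 passed with an unadjusted P. For leucogen against model it was 3 with an unadjusted P, 2 with DESeq2, 4 with total counts, 2 without a filter, 3 with all 12 libraries in one fit, 3 and 2 with limma on log2(FPKM + 0.1) and log2(FPKM + 1), and 0 to 2 with a library left out. For QJSB against leucogen it was 1 to 5 with a library left out. With the replicate number as a block, leucogen against model had 0 members called, with Gstp1 at an adjusted p of 0.0768 by edgeR, and QJSB against leucogen had 4. In the latter Gss lost its call, and the block changed the call of no other member. Same-numbered QJSB and leucogen libraries correlated at 0.181, 0.134 and 0.0782 after subtraction of group means, all positive. Whether they are paired is not known. In the comparisons with normal and in leucogen against model the sign varied between numbers. Over all genes, QJSB against model had 0 calls as reported, 8 with DESeq2, 18 with the block and 3 without QJSB 1, and leucogen against model had 3276 as reported but 1239 without leucogen 3 and 1724 without leucogen 1. QJSB against leucogen had 3511 as reported, 1544 without leucogen 3 and 2157 without leucogen 1. In leucogen against model 1641 of 3276 calls were higher with TMM, 1150 of 3805 with total counts, and 1183 of 3628 and 986 of 2925 with limma on the 2 FPKM scales. In model against normal 2368 of 5171 were higher with TMM and 3024 of 5370 with total counts.

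The sign turned for members that were not called. In QJSB against model, Gss became 0.01 with DESeq2, with its size factors and with the block, 0.0 without a filter and 0.02 with all 12 libraries in one fit. Gpx4 became -0.05 with total counts and -0.04 with limma, and Gclc -0.02 with limma. With a library left out, the log2 fold change in QJSB against model ran from -0.14 to 0.23 for Gclc, from -0.18 to 0.20 for Gclm, from -0.05 to 0.17 for Gpx4, from -0.10 to 0.16 for Gss and from -0.07 to 0.40 for Gstp1. In leucogen against model it ran from -0.49 to 0.14 for Gpx1, from -0.14 to 0.08 for Gpx4, from -0.26 to 0.16 for Gpx3 and from -0.30 to 0.08 for Gclm. In model against normal it ran from -0.10 to 0.37 for Gstp1, in QJSB against normal from -0.72 to 0.05 for Gpx1, in leucogen against normal from -0.38 to 0.0 for Gss, and in QJSB against leucogen from -0.14 to 0.81 for Slc7a11 and from -0.03 to 0.22 for Gclm. The cause of these turns was not tested. Gss, Slc7a11 and Gstp1 had under 400 counts in every library, which limits their precision.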
